A study of Mus musculus with 9 samples.

Results

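The MAP kinases and the protein phosphatases that oppose them were followed in mouse liver under 2 regimens of dietary restriction. The genes were taken by their names, as rows whose symbol begins with Map2k, Map3k, Map4k, Mapk, Mknk, Rps6k, Dusp, Ppp1 to Ppp6, Ptpn, Ptpr or Ppm1, with Dusp1 left out. Of 74 symbols that matched, 67 had a mean of at least 1 TPM over all 9 libraries and were kept, out of 4665 genes that reached this level and 5608 genes listed in all. TPM is the share of a transcript among all transcripts of a library, corrected for transcript length, so that levels can be compared between genes. Map3k8 at a mean of 1.07 TPM was the last gene kept, and Mapkbp1 at 0.986 TPM was the first left out, followed by Mapk7, Mapk11, Rps6ka2, Ptpre, Ptpn14 and Ptpn13.

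Liver RNA of wild-type C57BL/6 J mice was sequenced, 1 library per mouse and 3 mice per group. FED mice had free access to standard diet. IF mice went without food for 24 h on day 1 and again on day 4, with free feeding between the 2 fasts. FMD mice received a commercial fasting-mimicking diet on days 2 to 4, a low-protein and fat-rich ration given at a reduced and then at a strongly reduced amount of calories. All mice were killed on day 5, after the second fast in IF and after the third day of the ration in FMD. Replicates are numbered 1, 2 and 3, except that FMD has 1, 2 and 4. The whole liver was used, so fewer cells of a type and less RNA per cell cannot be told apart.

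In a MAP kinase cascade, a MAP3K phosphorylates a MAP2K, which phosphorylates a MAP kinase on a threonine and a tyrosine, and the MAP kinase then activates further kinases such as the MNK and RSK kinases. Dual-specificity phosphatases (Dusp) strip both phosphates from the MAP kinase, tyrosine phosphatases of the Ptpn and Ptpr families act on receptors and adaptors upstream, and the serine/threonine phosphatases PP1, PP2A, PP4 and PP6 and the metal-dependent phosphatases (Ppm1) reverse many of the serine and threonine marks. PP1 and PP2A are assembled from a few catalytic subunits and many regulatory subunits that choose the substrate. In liver these enzymes carry signals of insulin, glucagon, growth factors and stress, and PP1 also controls the switch between glycogen synthesis and breakdown. Kinase activity is set by phosphorylation, which RNA levels do not measure.

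The 67 genes comprised 15 kinases of the cascades, 4 kinases activated by MAP kinases or acting on ribosomal protein S6, 4 scaffolds and partners of the kinases, 4 Dusp, 7 Ptpn, 3 Ptpr, 3 catalytic subunits of PP1 and PP2A, 22 regulatory subunits and 5 Ppm1 enzymes. This makes 19 kinases and 44 phosphatase genes, 22 of them regulatory. Mapk14, Map2k1, Ppp1ca, Ppp2ca, Ptpn1 and other well-known members of these families were not analysed here.

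Most of the genes tested were higher under either regimen. On the log2(TPM + 1) scale their median log2 fold change was 0.24 in IF vs FED, 0.48 in FMD vs FED and 0.24 in FMD vs IF. Values after scaling are therefore given as well, in which every library was divided by the median of its ratios to an average library, which brings these medians to about 0. The ratios were taken over listed genes only, so scaling also removes a rise that most of them truly share. Whether the common rise is of this kind was not tested. FMD replicate 1 stood apart from the other libraries. Its listed genes summed to 42.99% of the fixed TPM total of a library, against 26.33% to 36.32% in the other 8 libraries. It was the highest of the 9 libraries for 49 of the 67 genes (73.1%) and for 65.8% of all genes tested, or for 21 (31.3%) and 21.2% after scaling. Cd68, the 1 listed gene of 11 macrophage markers, was at 64.02 TPM in FMD replicate 1 and at 3.14 to 12.16 TPM elsewhere. Of 8 markers of stellate cells 3 were listed (Col1a1, Pdgfrb and Dcn), whose sum ranged over 66.6 to 93.8 TPM in the FED libraries, 122 to 160 TPM in the IF libraries and 107 to 217 TPM in the FMD libraries, almost wholly through Dcn. Single listed markers of leukocytes (Cd53, 1 of 5) and bile duct cells (Krt19, 1 of 6) lay between 0.6 and 4.07 TPM, and 0 of 8 hepatocyte, 7 endothelial, 9 lymphocyte and 5 neutrophil markers were among the genes listed, so the liver identity of the samples could not be checked this way. The part that Cd68, Dcn or FMD replicate 1 had in the results was not tested, and counts without this library are given.

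More of these genes were called in FMD than in IF livers, each against FED, as was so for all genes. A call required an adjusted p (limma, Benjamini-Hochberg) under 0.05 and a log2 fold change above 0.585 in size, the limits of the study. In FMD vs FED, 27 of the 67 genes (40.3%) were called higher, where 35.5% of all genes tested were, and 0 were called lower, where 1.59% of all genes were. For IF the count against FED was 6 genes (8.96%) called higher and 0 lower, against 10.3% and 1.59% of all genes. In FMD vs IF 4 genes (5.97%) were called higher and 0 lower, against 4.67% and 0.472% of all genes. At an unadjusted limma p under 0.05, 1, 2 and 0 genes were lower in these comparisons, and 52, 29 and 20 were higher. Of all 4665 genes tested, 132, 156 and 121 were lower at this limit, and 3216, 1677 and 1525 were higher.

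After scaling, 5 genes were called higher and 2 lower in FMD vs FED, where 5.49% and 5.64% of all genes were called. The scaled IF vs FED comparison had 1 called higher and 2 lower, against 3.69% and 3.45% of all genes, and in FMD vs IF 1 higher and 0 lower, against 1.11% in each direction. The 67 genes had a median log2 fold change of 0.56 for FMD and 0.29 for IF, each against FED, and of 0.29 for FMD vs IF, and after scaling 0.07, 0.04 and 0.04. Without FMD replicate 1, 18 of the 27 calls in FMD vs FED were kept, and those of Dusp10, Dusp16, Map4k3, Mapk6, Mapkapk2, Ppm1g, Ppp1r2, Ppp1r8 and Ppp2r5b were lost. Calls fell over all 4665 genes too, to 1166 without this library from 1658 higher and 74 lower with it. The calls in FMD vs IF were Mknk2, Map3k5, Ppp2r2d and Dusp6, and their number was 0 without IF replicate 1, 2 or 3 and 14 without FMD replicate 4.

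The separation of the libraries was counted as well. All 3 FMD libraries lay above all 3 FED libraries for 51 genes (76.1%), where 68.0% of all genes did so, and all IF libraries lay above all FED libraries for 40 genes (59.7%), against 53.8%. FMD lay above IF for 26 genes (38.8%), against 33.6%. These TPM counts of FMD above FED and above IF include Map3k8, which reached a mean of 1 TPM only through FMD. After scaling FMD lay above FED for 19 genes and below it for 7, against 862 and 851 of all 4665 genes. IF lay above FED for 21 and below it for 9, against 1084 and 1071. FMD lay above IF for 12 and below it for 6, against 591 and 634. Overlaps stated below for single genes are those of TPM as deposited. The mean TPM increased in the order FED, IF, FMD in 51 of the 67 genes (76.1%) and in 68.0% of all genes, and after scaling in 17 (25.4%) and 20.7%. The heatmap of all 67 genes shows this common shift and the few genes that went beyond it.

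**Figure D1:**
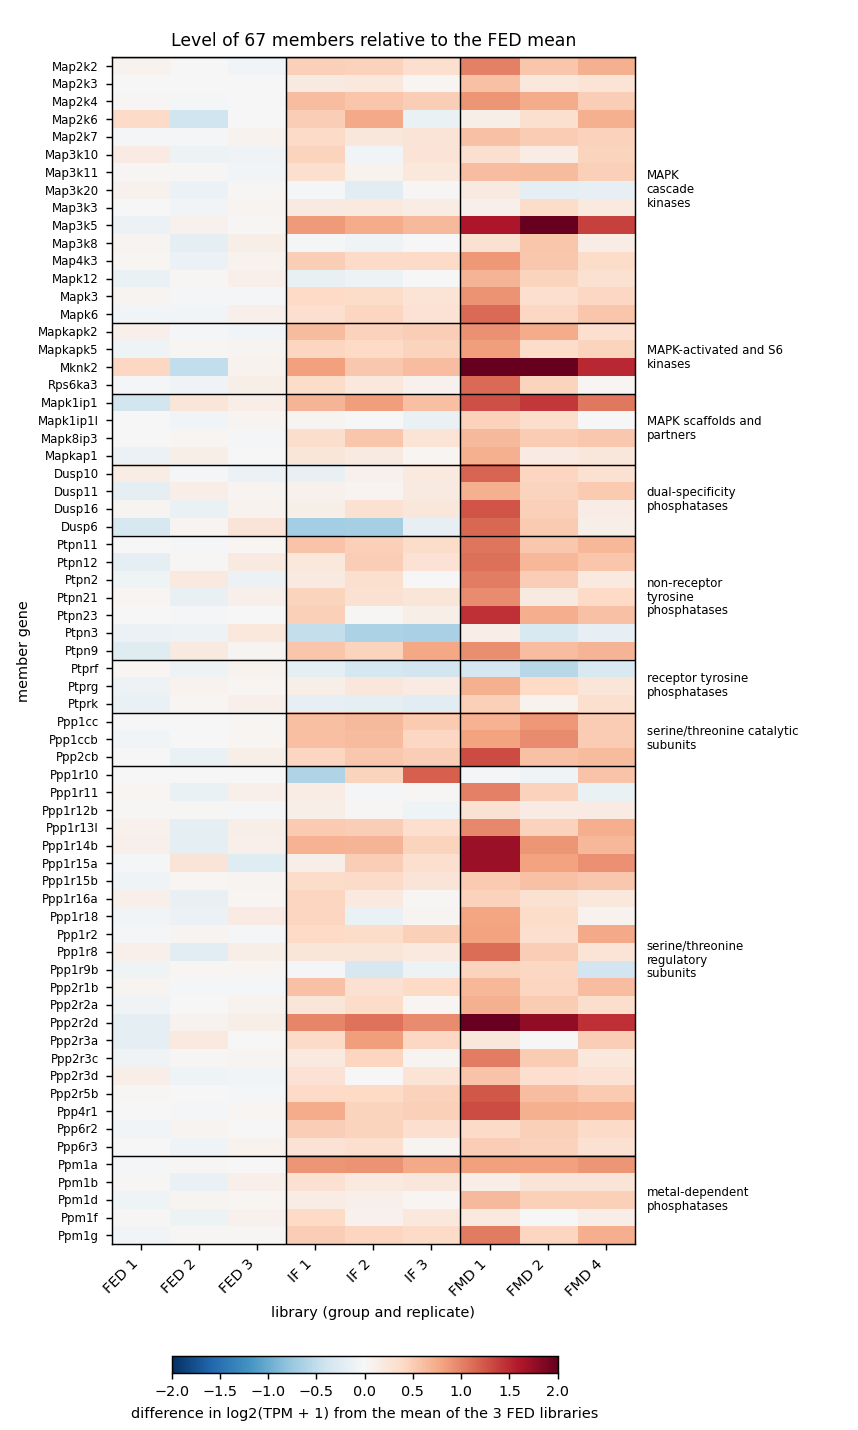
Level of the 67 genes (rows, grouped by role) in each of the 9 libraries (columns), as the difference in log2(TPM + 1) from the mean of the 3 FED libraries, with colours capped at a difference of 2. Most rows turn red from FED to IF and FMD, most of all in FMD replicate 1, while Mknk2, Map3k5 and Ppp2r2d are the darkest rows and Dusp6, Ptpn3 and Ptprf are blue in IF.

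Kinases and phosphatases were counted apart. In FMD vs FED 7 of 19 kinases (36.8%) and 19 of 44 phosphatase genes (43.2%) were called, all higher, where 35.5% of all genes were. The medians of the 2 classes were 0.55 and 0.57 on the log2 scale, against 0.48 for all genes, and after scaling 0.06 and 0.07. After scaling 2 kinases were called higher and 0 lower, and 2 phosphatase genes were called higher and 2 lower. Of all genes 5.49% were then called higher and 5.64% lower. Against FED, IF livers had 1 kinase (5.26%) and 4 phosphatase genes (9.09%) called, all higher, where 10.3% of all genes were. The class medians were 0.34 and 0.24, against 0.24 for all genes, and after scaling 0.07 and -0.01. By role, the calls in FMD vs FED were 5 of 15 cascade kinases, 2 of 4 MAP kinase-activated kinases, 1 of 4 scaffolds, 2 of 4 Dusp, 4 of 7 Ptpn, 0 of 3 Ptpr, 3 of 3 catalytic subunits, 8 of 22 regulatory subunits and 2 of 5 Ppm1 enzymes. The roles hold 3 to 22 genes each, and their counts stand beside the 35.5% of all genes. The difference between the classes was not tested.

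Before the single genes, the promoters in which a search found a shared sequence are shown. RefSeq promoters (GRCm38.p6, 250 bases before to 50 bases after a listed start) were matched to 56 of the 67 genes, with 75 promoters in all. They were searched on both strands for the cAMP response element TGACGTCA, which CREB and ATF factors bind, the AP-1 site TGACTCA of the Fos and Jun factors, the E-box CACGTG and the FOXO site GTAAACA. None of the 4 motifs contains another. The cAMP response element was present in 6 of the 75 promoters (8.0%), against 588 of all 32851 promoters (1.79%) and 166 of 4859 promoters of the genes tested (3.42%). The 5 genes that hold it are Ppp2r2d, Ppp1r15a, Ppm1a, Ptpn11 and Ppm1d. The first 4 of them were called higher in FMD vs FED, Ppp2r2d and Ppp1r15a also after scaling. Ppm1d was not called in any comparison. Counted by gene, this is 4 of 23 called members and 1 of 33 members not called, while among all genes tested it is 71 of 1349 called higher in FMD vs FED (5.26%) and 80 of 2466 others (3.24%). These counts are small, were looked at with the calls known, and are a description. The AP-1 letters were found in 1 promoter (Map3k10), the E-box in 1 (Mapk12) and the FOXO letters in 2 promoters of 1 gene (Mapkap1), against 5.2%, 7.15% and 3.65% of all promoters. Windows of the 75 promoters held a median of 22 CpG, the same as in the genes tested, against 7 in all promoters.

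The 150 bases before the listed start are given for the 5 genes, 5′ to 3′ on the strand of the gene, with the cAMP response element in capitals. They are shown because the same 8 letters stand in each within 150 bases of the start. The stretches lie at chr7:138846209-138846358 on the plus strand, chr7:45526269-45526418 on the minus strand, chr12:72761061-72761210 on the plus strand, chr5:121191398-121191547 on the minus strand and chr11:85311104-85311253 on the plus strand, all in GRCm38.p6. Ppp2r2d has 2 listed starts and so supplies 2 of the 6 promoters counted, and the stretch shown is that of the start nearer to the element. The element ends 14 bases before this start and 41 before the other in Ppp2r2d, and 5 bases before the start in Ppp1r15a, 129 in Ppm1a, 60 in Ptpn11 and 78 in Ppm1d.
Ppp2r2d: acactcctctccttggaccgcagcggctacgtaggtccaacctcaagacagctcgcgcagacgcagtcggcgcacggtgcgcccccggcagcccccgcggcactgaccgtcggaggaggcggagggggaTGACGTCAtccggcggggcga
Ppp1r15a: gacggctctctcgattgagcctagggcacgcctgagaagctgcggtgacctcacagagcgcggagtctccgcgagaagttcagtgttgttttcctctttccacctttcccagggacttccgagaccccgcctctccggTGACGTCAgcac
Ppm1a: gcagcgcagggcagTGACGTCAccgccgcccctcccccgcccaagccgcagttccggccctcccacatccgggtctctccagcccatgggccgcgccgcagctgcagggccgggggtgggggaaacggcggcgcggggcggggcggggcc
Ptpn11: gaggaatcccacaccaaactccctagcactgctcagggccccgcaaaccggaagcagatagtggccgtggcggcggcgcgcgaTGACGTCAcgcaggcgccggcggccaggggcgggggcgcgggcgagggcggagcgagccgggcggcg
Ppm1d: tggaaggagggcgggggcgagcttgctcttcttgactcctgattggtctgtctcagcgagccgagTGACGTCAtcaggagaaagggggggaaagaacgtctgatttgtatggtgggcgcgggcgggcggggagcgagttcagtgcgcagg

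Among the kinases, Mknk2 had the largest log2 fold change in FMD vs FED and in FMD vs IF, and Map3k5 in IF vs FED. Mknk2 (NCBI gene 17347) encodes MNK2, a kinase downstream of ERK and p38 that phosphorylates the cap-binding factor eIF4E. It was at 43.16, 22.65 and 33.94 TPM in FED replicates 1 to 3, at 57.67, 47.43 and 49.76 TPM in IF replicates 1 to 3, and at 163.02, 157.82 and 93.48 TPM in FMD replicates 1, 2 and 4. All FMD libraries were above all others, the IF libraries were also all above FED, and FMD replicate 4 was the lowest of its group. The log2 fold change was 2.03 in FMD vs FED (standard error 0.25, limma adjusted p = 0.000233) and 1.36 in FMD vs IF (limma adjusted p = 0.0193), and after scaling 1.48 and 1.09, both still called. The rise against FED was called in 27 of 27 alternative settings, but against IF in 18 of 27 and not when any 1 of the IF libraries was left out. IF vs FED gave 0.66 (limma adjusted p = 0.0769). Its promoter window, like those of Map3k5 and Dusp6, holds none of the 4 motifs.

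Map3k5 (NCBI gene 26408) encodes ASK1, the MAP3K that oxidative and endoplasmic reticulum stress engage upstream of JNK and p38. It was at 4.47, 5.27 and 5.04 TPM in the FED libraries, at 9.69, 8.94 and 8.27 TPM in IF and at 17.23, 24.53 and 14.28 TPM in FMD. The 3 groups did not overlap, and FMD replicate 2, not replicate 1, was the highest. It rose by 0.75 in IF vs FED (limma adjusted p = 0.012), by 1.70 in FMD vs FED (standard error 0.17, limma adjusted p = 7.41e-05) and by 0.95 in FMD vs IF (limma adjusted p = 0.0193) on the log2 scale. After scaling only the rise in FMD vs FED, at 1.21, was called, and the other 2 comparisons gave 0.51 and 0.69 (limma adjusted p = 0.0835 and 0.0592).

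The other MAP3K genes differed less. Map3k11 (MLK3) was at 12.95 ± 0.414 TPM in FED, 15.07 ± 1.38 TPM in IF and 19.8 ± 1.18 TPM in FMD (SD, n = 3 each), with a log2 fold change of 0.58 in FMD vs FED (limma adjusted p = 0.00188) that stayed just under the fold limit. Map3k8 (Tpl2), Map3k10 and Map3k3 were not called in any comparison. Map3k8 averaged 0.92 TPM in FED, 0.86 TPM in IF and 1.44 TPM in FMD, so it passed the limit of 1 TPM only through FMD. Map3k20 (ZAK) was at 3.02 ± 0.269, 2.79 ± 0.336 and 2.87 ± 0.574 TPM and was the 1 kinase with a log2 fold change below 0 in FMD vs FED, at -0.06, or -0.48 after scaling (limma adjusted p = 0.0125), within the fold limit. Map4k3, a germinal centre-type kinase upstream of the MAP3K tier, was called in FMD vs FED at 0.59 (limma adjusted p = 0.00472), or 0.09 after scaling.

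In the MAP2K tier, Map2k2, which encodes the ERK activator MEK2, was the most abundant cascade kinase. It was at 56.11, 53.4 and 51.59 TPM in FED, 74.66, 74.57 and 68.37 TPM in IF and 109.36, 78.91 and 88.1 TPM in FMD. The groups did not overlap, and the log2 fold change was 0.43 for IF and 0.76 for FMD, each against FED (limma adjusted p = 0.0366 and 0.00115), the latter called, and after scaling 0.15 and 0.21. Map2k3, an activator of p38, was the next most abundant at 35.84 ± 0.115 TPM in FED, 39.67 ± 2.56 TPM in IF and 46.58 ± 6.94 TPM in FMD (SD, n = 3 each) and was not called. Map2k4, which activates JNK and p38, was called in FMD vs FED at 0.70 (limma adjusted p = 0.00114), with 0.56 in IF vs FED (limma adjusted p = 0.00935), just below the fold limit, and 0.18 and 0.30 after scaling.

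Of the 3 MAP kinases that reached a mean of 1 TPM, 1 was called in FMD vs FED. Mapk3, which encodes ERK1, was at 24.11, 22.79 and 22.43 TPM in FED, 30.69, 30.16 and 28.03 TPM in IF and 43.83, 29.41 and 31.26 TPM in FMD. FMD replicate 1 was highest, and IF and FMD overlapped while both lay above FED. Its log2 fold change of 0.55 in FMD vs FED (limma adjusted p = 0.00803) was within the fold limit, and it was 0.02 after scaling. Mapk6 (ERK3) was called in FMD vs FED at 0.70 (limma adjusted p = 0.00552), but not without FMD replicate 1 and not after scaling (0.19). Mapk12 (p38 gamma) was at 1.38 ± 0.199 TPM in FED, 1.24 ± 0.115 TPM in IF and 2.32 ± 0.433 TPM in FMD (SD, n = 3 each), and its FMD vs IF value was 0.56 (limma adjusted p = 0.0361), within the fold limit.

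Of the other kinases that MAP kinases activate, Mapkapk2 (MK2), a p38 target that stabilizes labile mRNAs, was at 37.79 ± 2.31 TPM in FED, 54.94 ± 3.74 TPM in IF and 61.13 ± 12.2 TPM in FMD (SD, n = 3 each). It was called in FMD vs FED at 0.66 (limma adjusted p = 0.00385), but at 0.12 after scaling it was not, nor was it without FMD replicate 1. Mapkapk5, a related kinase, was at 13.63 ± 0.75 TPM in FED, 18.62 ± 0.334 TPM in IF and 20.61 ± 3.83 TPM in FMD and was not called. Rps6ka3 (RSK2) was at 1.64 ± 0.191, 2.08 ± 0.3 and 3.03 ± 1.58 TPM, and its FMD libraries ran from 1.7 to 4.78 TPM with replicate 1 on top and overlapped FED. The share of Mknk2 in the summed TPM of the 19 kinases was 8.77% to 14.9% in FED, 13.1% to 14.9% in IF and 21.4% to 30.4% in FMD.

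The ratio of the summed TPM of the kinases to that of the 44 phosphatase genes, taken within each library so that scaling cannot move it, was 0.572, 0.51 and 0.504 in FED, 0.566, 0.529 and 0.53 in IF and 0.632, 0.675 and 0.589 in FMD. All FMD libraries were above the others, and FED and IF overlapped. With Mknk2 left out, the ratio lay between 0.441 and 0.487 in all 9 libraries, and FMD, at 0.462, 0.47 and 0.463, lay inside the range of FED. These sums weight genes by their level and are given as a description.

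**Figure D2:**
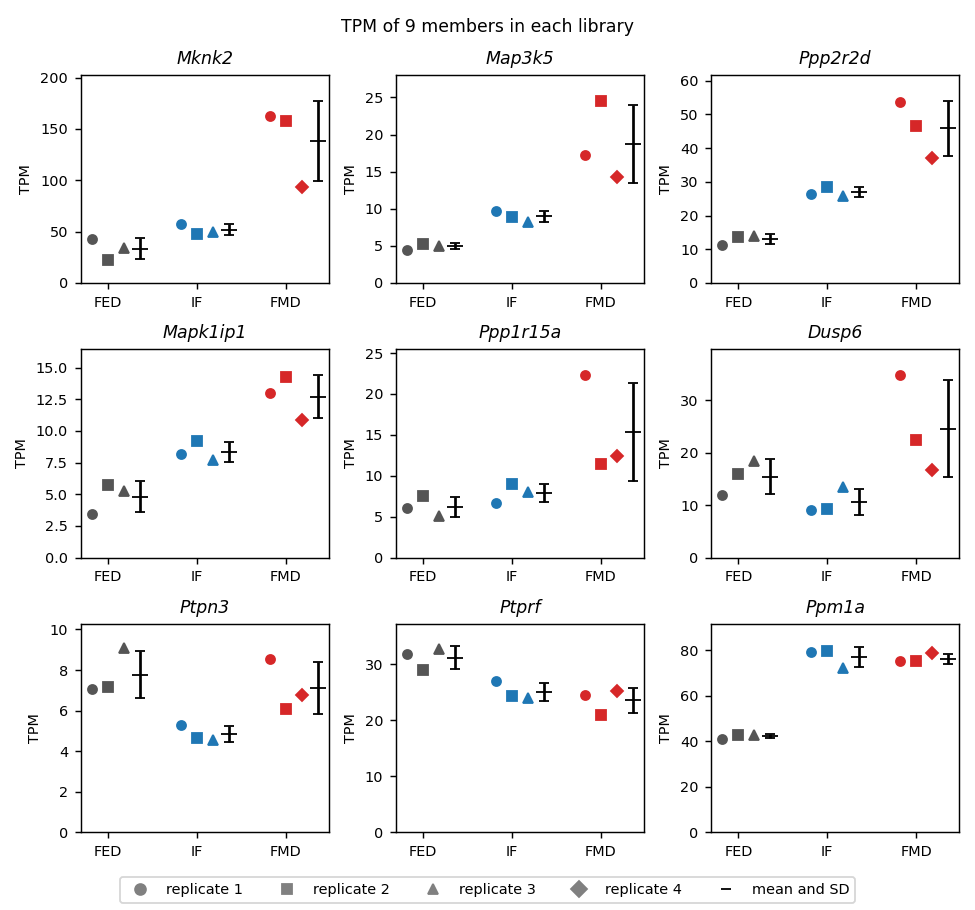
TPM of 9 kinases, partners and phosphatases (vertical axes, from 0) in FED, IF and FMD, with 1 point per library, its shape giving the replicate number, and the mean and SD beside each group (n = 3). Mknk2, Map3k5, Ppp2r2d and Mapk1ip1 are highest in all FMD libraries, Ppm1a is at about the same level in IF and FMD, and Dusp6 and Ptpn3 are lowest in IF.

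Of the scaffolds and partners, Mapk1ip1 (NCBI gene 69546), which encodes a partner of the MAP kinases, was at 3.41, 5.74 and 5.24 TPM in FED, 8.17, 9.17 and 7.67 TPM in IF and 13, 14.23 and 10.87 TPM in FMD. The 3 groups did not overlap. It rose by 0.71 in IF vs FED (limma adjusted p = 0.0142) and by 1.26 in FMD vs FED (limma adjusted p = 0.000352), and after scaling by 0.77 in FMD vs FED, still called, with 0.47 in IF vs FED (limma adjusted p = 0.0843). Mapk1ip1l, the most abundant of this group at 22.29 ± 0.935 TPM in FED, 21.88 ± 1.54 TPM in IF and 27.44 ± 4.48 TPM in FMD (SD, n = 3 each), was not called, and nor were Mapkap1, which encodes the mTORC2 subunit SIN1, and the JNK scaffold Mapk8ip3.

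Among the dual-specificity phosphatases, Dusp6 was lowest in IF and highest in FMD. Dusp6 (NCBI gene 67603) is a cytoplasmic phosphatase selective for ERK and is itself induced by ERK signalling. It was at 11.94, 15.9 and 18.46 TPM in FED, 9.1, 9.27 and 13.44 TPM in IF and 34.74, 22.4 and 16.6 TPM in FMD. FMD and IF did not overlap, FED overlapped both, and FMD replicate 1 was the highest library. Dusp6 was higher in FMD vs IF by 1.10 (standard error 0.25, limma adjusted p = 0.0336), or by 0.84 after scaling (limma adjusted p = 0.0586). In IF vs FED it was at -0.50 (limma adjusted p = 0.165), and after scaling at -0.77 and called lower (limma adjusted p = 0.0407). Within each library the ratio of Dusp6 to Mapk3 was 0.672 ± 0.165 in FED, 0.361 ± 0.103 in IF and 0.695 ± 0.143 in FMD (SD, n = 3 each).

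Dusp10 and Dusp16, which act mainly on JNK and p38, were called in FMD vs FED at 0.63 each (limma adjusted p = 0.0217 and 0.0312). In both, FMD replicate 1 was far above the others, at 4.65 against 2.42 and 2.12 TPM for Dusp10 and at 24.42 against 13.82 and 10.83 TPM for Dusp16, and neither was called without it or after scaling (0.25 and 0.12). Dusp11, an RNA phosphatase of the same fold, was at 10.65 ± 1.3, 11.55 ± 0.572 and 16.12 ± 1.62 TPM in FED, IF and FMD (SD, n = 3 each), with 0.56 in FMD vs FED (limma adjusted p = 0.0037), within the fold limit.

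Of the 7 non-receptor tyrosine phosphatases 4 were called higher in FMD vs FED, and Ptpn3 alone had a log2 fold change below 0. Ptpn2 and Ptpn21 were at 0.57 and 0.51 (limma adjusted p = 0.0258 and 0.0288), within the fold limit. Ptpn3 (NCBI gene 545622), a phosphatase with FERM and PDZ domains at the cell cortex, was at 7.05, 7.15 and 9.1 TPM in FED, 5.28, 4.64 and 4.56 TPM in IF and 8.56, 6.08 and 6.76 TPM in FMD. All IF libraries were below all FED and FMD libraries, and FED and FMD overlapped. The log2 fold change in IF vs FED was -0.58 (limma adjusted p = 0.0164), just inside the fold limit, and after scaling it was -0.83 and called lower (limma adjusted p = 0.00115). In FMD vs FED it was -0.11, and -0.60 after scaling, also called lower (limma adjusted p = 0.00402).

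Ptpn11 encodes SHP2, an adaptor-bound phosphatase that promotes RAS and ERK signalling. It was at 14.8, 14.43 and 15.35 TPM in FED, 22.56, 20.95 and 19.46 TPM in IF and 32.17, 22.08 and 24.12 TPM in FMD. IF and FMD overlapped, and both lay above FED. It was called in FMD vs FED at 0.76 (limma adjusted p = 0.00168), with 0.47 in IF vs FED (limma adjusted p = 0.0347), and after scaling at 0.23 and 0.20 without a call. Ptpn12, a phosphatase of focal adhesion proteins, and Ptpn23, which works in endosomal sorting, were called in FMD vs FED at 0.77 and 0.92 (limma adjusted p = 0.00313 and 0.00432), and Ptpn12 was at 0.27 after scaling without a call. Ptpn23 was at 9.05, 5.06 and 4.47 TPM in FMD against 2.61 to 2.68 TPM in FED, with FMD replicate 1 the highest, and after scaling it was 0.48 (limma adjusted p = 0.0518).

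Ptpn9, a vesicle-bound phosphatase, rose in both regimens, by 0.60 for IF and 0.74 for FMD, each against FED (limma adjusted p = 0.0164 and 0.00235), with 6.67 ± 1.13 TPM in FED, 10.56 ± 1.35 TPM in IF and 11.78 ± 1.47 TPM in FMD (SD, n = 3 each), and after scaling it was not called (0.35 and 0.24). Ptpn2, which dephosphorylates JAK and STAT proteins and the insulin receptor, was at 7.41 ± 1.06, 8.46 ± 1.02 and 11.81 ± 3.86 TPM, with FMD libraries that overlapped FED, and was not called. The within-library ratio of Ptpn3 to Ptpn9 was 1.18 ± 0.214 in FED, 0.463 ± 0.0738 in IF and 0.603 ± 0.0341 in FMD (SD, n = 3 each), with FED above both.

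The receptor tyrosine phosphatases had the lowest median log2 fold change of all roles in FMD vs FED, at 0.29. Ptprf (NCBI gene 19268) encodes LAR, a transmembrane phosphatase that can act on the insulin receptor. It was at 31.9, 28.99 and 32.8 TPM in FED, 26.97, 24.29 and 23.99 TPM in IF and 24.53, 21.03 and 25.16 TPM in FMD. All FED libraries were above all others, and IF and FMD overlapped. Its log2 fold change was -0.31 in IF vs FED (limma adjusted p = 0.075) and -0.39 in FMD vs FED (limma adjusted p = 0.0124), both within the fold limit. After scaling it was -0.58 in IF and -0.93 in FMD (limma adjusted p = 0.00969 and 0.000598), the second called lower. Ptprk, a receptor phosphatase of cell contacts, was at 11.87 ± 1.08 TPM in FED, 10.21 ± 0.207 TPM in IF and 14.78 ± 2.22 TPM in FMD (SD, n = 3 each), with all IF libraries below FED and FMD, and was not called. Ptprg was at 4.09 ± 0.314, 4.72 ± 0.221 and 6.01 ± 1.17 TPM and was not called.

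All 3 catalytic subunits listed rose in FMD vs FED. Ppp1cc, a catalytic subunit of PP1, was at 24.99, 25.18 and 25.54 TPM in FED, 38.7, 40.2 and 36.83 TPM in IF and 41.63, 46.82 and 36.2 TPM in FMD. FED lay below both diets, which overlapped. It rose by 0.59 for IF and 0.69 for FMD, each against FED (limma adjusted p = 0.0058 and 0.00101), and after scaling it was at 0.32 and 0.15 without a call. Ppp1ccb, a near-identical copy of Ppp1cc, was called in FMD vs FED at 0.75 (limma adjusted p = 0.00125), or 0.21 after scaling without a call, and how reads were divided between these copies is uncertain. Ppp2cb, a catalytic subunit of PP2A, was at 24.23 ± 2.11 TPM in FED, 34.31 ± 1.31 TPM in IF and 45.26 ± 13.7 TPM in FMD (SD, n = 3 each) and was called in FMD vs FED at 0.84 (limma adjusted p = 0.00294), or 0.30 after scaling without a call.

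The strongest change among the phosphatase genes was in a regulatory subunit. Ppp2r2d (NCBI gene 52432) encodes B55 delta, a PP2A subunit known from mitotic exit. It was at 11.25, 13.7 and 14.04 TPM in FED, 26.49, 28.58 and 25.77 TPM in IF and 53.63, 46.66 and 37.2 TPM in FMD. The 3 groups were separate, with IF above FED and FMD above IF. It rose by 1.002 in IF vs FED (standard error 0.15, limma adjusted p = 0.00132), by 1.73 in FMD vs FED (limma adjusted p = 2.65e-05) and by 0.73 in FMD vs IF (limma adjusted p = 0.0238). After scaling the first 2 were 0.74 and 1.20, both still called, and both were called in 27 of 27 alternative settings. FMD vs IF was 0.46 after scaling, within the fold limit.

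The related subunit Ppp2r2a (B55 alpha) was at 5.18 ± 0.304 TPM in FED, 6.19 ± 0.79 TPM in IF and 7.94 ± 1.12 TPM in FMD (SD, n = 3 each) and was not called. The ratio of Ppp2r2d to Ppp2r2a within a library was 2.29, 2.67 and 2.55 in FED, 4.21, 4.12 and 4.81 in IF and 5.87, 6.01 and 5.38 in FMD, again with 3 separate groups. Among the other PP2A subunits, Ppp2r5b was called in FMD vs FED at 0.80 (limma adjusted p = 0.00307), but not without FMD replicate 1 or after scaling (0.33), and Ppp2r1b, Ppp2r3a, Ppp2r3c and Ppp2r3d were not called. Ppp4r1, a subunit of PP4, was called at 0.90 (limma adjusted p = 0.00161), with 0.40 after scaling (limma adjusted p = 0.0239), within the fold limit.

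Ppp1r15a and Ppp1r15b encode GADD34 and CReP, which bring PP1 to eIF2 alpha, the first on stress and the second constitutively. Ppp1r15a (NCBI gene 17872) was at 6.04, 7.51 and 5.05 TPM in FED, 6.71, 8.98 and 7.98 TPM in IF and 22.28, 11.45 and 12.4 TPM in FMD. FMD lay above the others, with replicate 1 the highest, and FED and IF overlapped. It rose by 1.14 in FMD vs FED (standard error 0.23, limma adjusted p = 0.00231), and by 0.64 after scaling (limma adjusted p = 0.0332), but after scaling without FMD replicate 1 it was at 0.47 (limma adjusted p = 0.0732). Ppp1r15b was at 26.76 ± 1.48 TPM in FED, 34.0 ± 1.64 TPM in IF and 39.71 ± 0.911 TPM in FMD (SD, n = 3 each), with 0.55 in FMD vs FED (limma adjusted p = 0.00156), within the fold limit, and 0.02 after scaling. Their ratio was 0.232 ± 0.0471 in FED, 0.232 ± 0.0346 in IF and 0.389 ± 0.158 in FMD, where replicate 1 was at 0.571 and the others at 0.281 and 0.315.

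Of the remaining PP1 partners, Ppp1r14b, an inhibitor of PP1 that acts on myosin phosphatase, had the highest mean of the regulatory subunits over all libraries. The means of Ppp1r15b were higher in FED (26.76 against 21.83 TPM) and in IF (34.0 against 33.72 TPM). Ppp1r14b was at 23.34, 18.89 and 23.26 TPM in FED, 35.78, 35.44 and 29.94 TPM in IF and 74.21, 41.11 and 34.87 TPM in FMD. FED lay below both diets, and FMD replicate 1 was far above all others. It was called in FMD vs FED at 1.09 (limma adjusted p = 0.00316), and after scaling it was at 0.55 (limma adjusted p = 0.039), within the fold limit. Ppp1r13l, Ppp1r2 and Ppp1r8 were called in FMD vs FED at 0.72, 0.64 and 0.63, and after scaling they were at 0.38, 0.12 and 0.13, none of them called. Ppp1r10, a nuclear PP1 partner, was the least reproducible gene in IF, at 7.99, 17.68 and 30.15 TPM there against 12.51 to 12.78 TPM in FED, and it was not called. After scaling the coefficient of variation of the 67 genes had a median of 7.43% in FED, 7.07% in IF and 15.0% in FMD. Scaling divided FMD replicate 1 by 1.428 and replicates 2 and 4 by 1.142 and 1.093. It widened the FMD spread of some genes and narrowed that of others, as in Ppm1a (SD 2.13 to 9.96) and Ppp1r8 (SD 4.08 to 1.82). The 15.0% is therefore not the spread of the TPM as deposited.

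Among the metal-dependent phosphatases, Ppm1a (NCBI gene 19042) rose in both regimens, though not past the limits after scaling. It encodes PP2C alpha, which acts on p38, JNK kinases and SMAD proteins. It was at 41.27, 43.03 and 42.6 TPM in FED, 79.18, 79.83 and 72.25 TPM in IF and 75.17, 75.14 and 78.84 TPM in FMD. FED lay below both diets, which overlapped, and the replicates lay close together. The rise was 0.85 for IF and 0.84 for FMD, each against FED (limma adjusted p = 0.000409 and 0.000175), with -0.01 in FMD vs IF (standard error 0.10). After scaling the values were 0.57 (limma adjusted p = 0.00997) and 0.29 (limma adjusted p = 0.0924), neither past the fold limit. Ppm1b (PP2C beta) was at 53.16 ± 4.6, 63.02 ± 2.79 and 61.72 ± 3.14 TPM (SD, n = 3 each) and was not called, and the ratio of Ppm1a to Ppm1b was 0.8 ± 0.0814 in FED, 1.22 ± 0.083 in IF and 1.24 ± 0.0551 in FMD. Ppm1g, the next most abundant, was called in FMD vs FED at 0.73 (limma adjusted p = 0.00217), or 0.20 after scaling, and not without FMD replicate 1.

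Ratios of related genes within a library do not depend on how libraries are scaled, and the pairs in the plot of within-library ratios were chosen after the values were seen, so they carry no test. FMD libraries were above all FED and IF libraries for Mknk2 to Mapkapk2, at 2.23 ± 0.254 against 0.874 ± 0.231 in FED and 0.938 ± 0.033 in IF (SD, n = 3 each). For Map3k5 to Map3k11 the ratio was 0.381 ± 0.0372 in FED, 0.597 ± 0.0534 in IF and 0.937 ± 0.222 in FMD, with no overlap between groups. The ratio of Ptprf to Ptprk was 2.65 ± 0.312 in FED and 2.46 ± 0.12 in IF and 1.61 ± 0.132 in FMD, where all libraries were below the others.

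**Figure D3:**
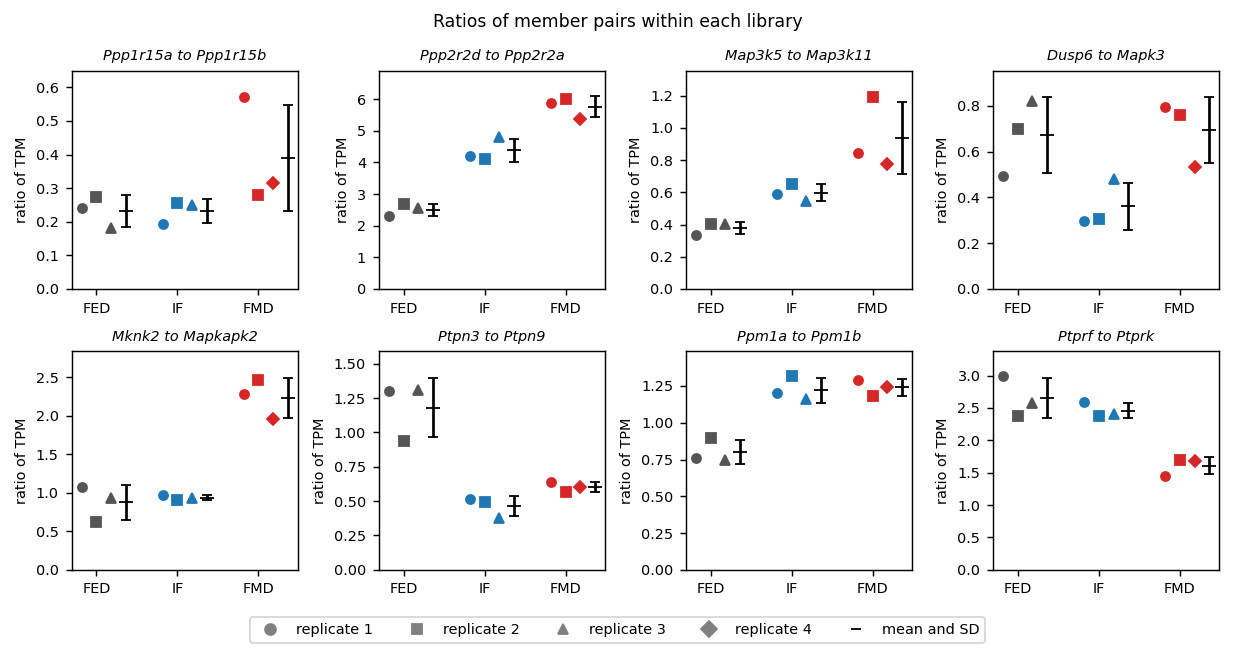
Ratio of TPM of 8 pairs of genes within each library (vertical axes, from 0) in FED, IF and FMD, with 1 point per library and the mean and SD beside each group (n = 3). Ppp2r2d to Ppp2r2a and Map3k5 to Map3k11 step up from FED to IF to FMD, Mknk2 to Mapkapk2 is raised in FMD, Dusp6 to Mapk3 and Ptpn3 to Ptpn9 are lowest in IF, and Ptprf to Ptprk is lowest in FMD.

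Other genes of the same pathways were taken from lists drawn up by function. The counts of these lists stand beside 10.3% of all genes called higher in IF vs FED, 35.5% in FMD vs FED and 4.67% in FMD vs IF, or 3.69%, 5.49% and 1.11% after scaling. The shares called lower were 1.59%, 1.59% and 0.472%, or 3.45%, 5.64% and 1.11% after scaling. With 7 to 17 genes tested in each list, the counts are a description. Upstream of the cascades, 17 of 46 genes from receptors to the PAK kinases were tested. In IF vs FED 2 were called higher and 1 lower, and in FMD vs FED 5 higher and 1 lower, or 1 and 1 in IF and 0 and 1 in FMD after scaling, and 0 in FMD vs IF. The gene called lower was Egfr, the receptor of epidermal growth factor, at 143.8, 192.86 and 200.83 TPM in FED, 61.42, 61.03 and 64.94 TPM in IF and 50.22, 69.58 and 53.19 TPM in FMD. All FED libraries were above all others, and IF and FMD overlapped, and Egfr fell by 1.49 in IF and by 1.62 in FMD on the log2 scale (limma adjusted p = 0.000321 and 6.21e-05). Taok3, a kinase upstream of p38, rose by 0.89 and 1.06 (limma adjusted p = 0.00166 and 0.000279), or by 0.65 after scaling in IF with no call in FMD (0.56), and the insulin receptor gene Insr by 0.59 and 0.69, which were not called after scaling. Taok1, Pak2 and Stk4 were called in FMD vs FED at 0.60, 0.64 and 0.59, none of them after scaling, and without FMD replicate 1 the list held 2 calls higher and 1 lower in FMD vs FED.

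Of 15 feedback inhibitors of the pathway, 9 were tested. In IF vs FED 2 were called higher, in FMD vs FED 5 higher, and in FMD vs IF 3 higher and 1 lower, or 2 higher and 1 lower, 3 higher, and 2 higher and 1 lower after scaling. Pebp1, which encodes a phosphatidylethanolamine-binding protein, was at 174.69, 160.79 and 161.57 TPM in FED, 335.43, 294.57 and 356.13 TPM in IF and 172.88, 171.4 and 196.0 TPM in FMD. IF lay above both other groups, which overlapped. It rose by 0.98 in IF vs FED (limma adjusted p = 0.000426) and changed by -0.86 on the log2 scale in FMD vs IF (limma adjusted p = 0.00532), and both were called after scaling. Spred1 and Spred2, which hold back RAS signalling, went the other way, higher in FMD vs IF by 0.91 and 0.89 (limma adjusted p = 0.0188 and 0.0221), and both were called after scaling at 0.69 and 0.67. Socs3, the inhibitor of cytokine receptors, rose by 1.06 in IF and 1.31 in FMD, and Trib1, Trib3 and Ier3 were called in FMD vs FED at 1.003, 2.28 and 1.39, with Trib3 at 83.77 TPM in FMD replicate 1 and 17.27 and 15.19 TPM in the others. After scaling Socs3 (0.87 and 0.88), Trib3 (1.78) and Ier3 (1.03) were still called, and Trib1 (0.48) was not. Ier3 averaged 0.85 TPM in FED, 0.93 TPM in IF and 4.69 TPM in FMD, so it was tested only through its FMD level.

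Of 24 transcription factors downstream of MAP kinases, 9 were tested. The calls were 2 in IF vs FED, 5 in FMD vs FED and 3 in FMD vs IF, all higher, or 1, 2 and 2 after scaling. Myc was at 0.78, 0.94 and 1.3 TPM in FED, 4.08, 3.4 and 7.71 TPM in IF and 23.74, 6.72 and 4.7 TPM in FMD, and rose by 1.54 in IF and by 2.37 in FMD (limma adjusted p = 0.032 and 0.00192), called also after scaling. Its partner Max was at 12.32 ± 0.393 TPM in FED, 12.07 ± 1.29 TPM in IF and 23.62 ± 6.74 TPM in FMD (SD, n = 3 each), and Max and Fosl2 were higher in FMD vs IF by 0.88 and 0.83 (limma adjusted p = 0.0231 and 0.024), or by 0.62 and 0.61 after scaling, still called. Klf6 was called in FMD vs FED at 1.75, or 1.31 after scaling, still called. Elk4 was called in IF vs FED at 0.61, or 0.39 after scaling without a call. Fosl1 was listed at 0 in all FED and IF libraries and at 11.36, 1.46 and 0.09 TPM in FMD replicates 1, 2 and 4, so its mean over all libraries came from FMD alone.

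**Figure D4:**
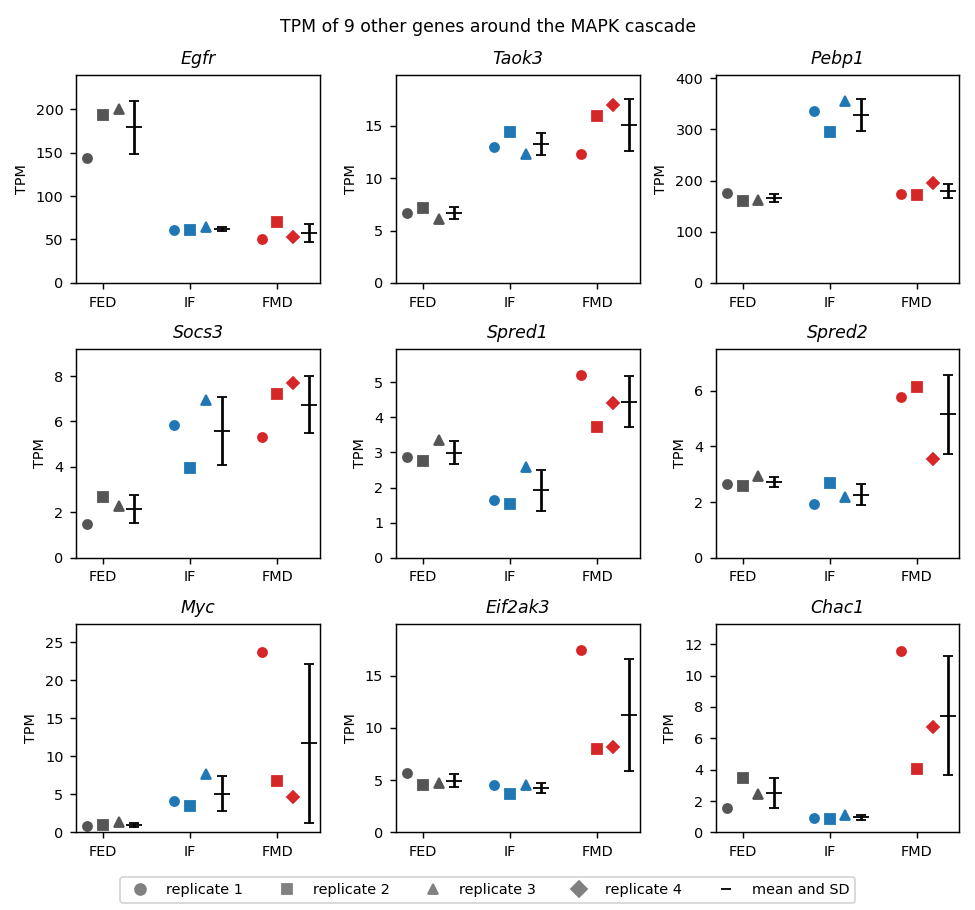
TPM of 9 genes around the MAPK cascade that are not kinases or phosphatases of the 67 (vertical axes, from 0) in FED, IF and FMD, with 1 point per library and the mean and SD beside each group (n = 3). Egfr is lower in both regimens, Pebp1 is raised in IF, Spred1, Spred2, Eif2ak3 and Chac1 are highest in FMD, and Myc, Eif2ak3 and Chac1 have FMD replicate 1 far above the other libraries.

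Of 19 genes from insulin receptor substrates through mTOR to S6 and eIF4E, 13 were tested. Of these, 1 was called in IF vs FED, in FMD vs FED 7 and in FMD vs IF 1, all higher, while after scaling 0 were higher and 1 lower in IF, 1 higher and 1 lower in FMD and 0 in FMD vs IF. Eif4b rose by 0.76 and 0.80 in IF and FMD vs FED, and after scaling it was at 0.48 and 0.26, called in neither. Eif4ebp1, the repressor of eIF4E, was at 54.97, 47.03 and 52.63 TPM in FED, 56.1, 57.94 and 58.74 TPM in IF and 188.23, 84.11 and 93.39 TPM in FMD. FMD lay above all other libraries, with replicate 1 highest, and the rise was 1.13 in FMD vs FED and 0.97 in FMD vs IF (limma adjusted p = 0.0033 and 0.0413), or 0.59, still called, and 0.70, not called, after scaling. Mtor, Irs2, Akt1, Rheb and Rps6 were called in FMD vs FED at 0.81, 0.89, 0.65, 0.68 and 0.81, and none of them after scaling, and without FMD replicate 1 the list held 4 calls. Pdcd4, an inhibitor of translation, was the gene called lower after scaling, at -0.74 in IF and -1.01 in FMD vs FED.

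Of 16 genes of glycogen metabolism under PP1 control 7 were tested, and 1, Stbd1, was called higher in IF and in FMD vs FED, at 0.82 and 0.95 (limma adjusted p = 0.00225 and 0.00041), and not after scaling. Epm2a, which encodes the glycogen phosphatase laforin, was called lower in FMD vs IF after scaling only, at -0.61. Of 12 eIF2 alpha kinases and targets 11 were tested, with 0 called in IF vs FED, 5 higher in FMD vs FED and 2 higher in FMD vs IF, and after scaling 0 higher and 1 lower, 2 higher and 2 higher. Eif2ak3, which encodes the kinase PERK, was at 5.64, 4.5 and 4.73 TPM in FED, 4.54, 3.68 and 4.54 TPM in IF and 17.45, 8.03 and 8.21 TPM in FMD. Chac1, a target of ATF4, was at 1.58, 3.47 and 2.44 TPM in FED, 0.93, 0.83 and 1.13 TPM in IF and 11.55, 4.07 and 6.7 TPM in FMD. Both had FMD above all other libraries and were higher in FMD vs IF, by 1.14 and 2.01 (limma adjusted p = 0.0282 and 0.00867), called also after scaling. Chac1 was also the gene called lower in IF vs FED after scaling, at -0.9984. Sesn2 and Eif2s1 were called in FMD vs FED at 1.42 and 0.59, the latter not after scaling, and Trib3 belongs to this list too. Without FMD replicate 1, 4 genes of the list were called higher and 1 lower in FMD vs FED, 1 higher and 2 lower in IF vs FED, and 3 higher in FMD vs IF.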

How the data were processed

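Liver RNA of 9 mice (FED, IF and FMD, 3 each, grouped by sample title) was sequenced from strand-specific poly(A) libraries. The authors deposited 1 table of TPM. Their processing notes name mm39 and DESeq2, while the aligner and annotation are not given in the sources used here. The table lists 5608 genes, so each library is held in part, its read depth is unknown and no counting interval is given.

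The 4665 genes whose TPM averaged 1 or more were fitted on log2(TPM + 1), with a pseudocount of 1, over all 9 libraries in limma 3.58.1 (R 4.3.3, empirical Bayes with trend), with Benjamini-Hochberg adjustment over all of them. All tests are two-sided, and p-values measure the spread between these mice. Fold changes understate those of low genes. Calls needed an adjusted p under 0.05 and a log2 fold change above 0.585. Named genes were up to 8 called members with the largest change in each comparison and direction, the 3 most abundant of each role, a list of well-known enzymes, and up to 5 called genes of each pathway list by adjusted p. Other genes named were chosen after their values were seen. The members and lists were chosen with earlier results of these data known. Alternatives were other pseudocounts, filters, scaling, quantile normalization, no trend, a replicate block, other limits, fits on 2 groups and leaving out each library. Counts without FMD replicate 1 for the pathway lists were added after seeing the data. The code was tested on simulated data. Python 3.11.15, pandas 2.3.3, numpy 2.4.6 and matplotlib 3.10.9 were used.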

Additional observations from a re-analysis of the deposited data

How the results depend on the processing

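The number of the 67 genes called depended on scaling and on the limits. In IF vs FED, where 6 were called, the number was 11 with a pseudocount of 0.1, 3 with quantile normalization, 3 with scaling, 21 with no fold limit and 3 at an adjusted p under 0.01, and leaving out 1 library gave 4 to 8, or 2 to 4 with scaling. In FMD vs FED, where 27 were called, it was 7 with quantile normalization, 7 with scaling and 47 with no fold limit, and leaving out 1 library gave 18 to 35, or 5 to 8 with scaling. In FMD vs IF, where 4 were called, it was 1 in a fit of these 2 groups only, 1 with quantile normalization, 1 with scaling, 7 with no fold limit and 0 at an adjusted p under 0.01, and leaving out 1 library gave 0 to 14, or 0 to 4 with scaling. The median log2 fold changes of 0.29, 0.56 and 0.29 (in the order above) became 0.050, 0.043 and 0.035 with quantile normalization and 0.039, 0.071 and 0.044 with scaling. Leaving out 1 library gave 0.26 to 0.31, 0.43 to 0.61 and 0.14 to 0.33, and with scaling 0.018 to 0.059, 0.063 to 0.11 and 0.0060 to 0.059. Values under alternatives were taken for the 41 pairs of a gene and a comparison that were called before or after scaling. Of these 1104 values, 682 kept direction and side of the threshold, 377 lost the call, 42 gained it and 3 changed sign. The sign changed for Dusp16 (-0.082) and Ppp1r8 (-0.0031) with scaling without FMD replicate 1 and for Ppp1r2 (-0.012) with scaling without FMD replicate 4. All 3 were in FMD vs FED, where leaving out 1 library gave at most 0.87, 0.81 and 0.78 for these genes. The cause was not tested. Whether the replicate numbers pair the libraries could not be settled, and the main fit used no pairing. In deviations from the group means, same-numbered libraries of different groups correlated at 0.00348 to 0.177. Differently numbered ones correlated at -0.202 to 0.211. With a replicate block 8, 38 and 14 genes were called in the 3 comparisons. Shares over all genes are not given for the replicate block or for no fold limit, so these counts show nothing particular to the 67 genes. Read depth could not be taken from the table, and 3 mice a group limit what a missed threshold can show.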
